A study of Mus musculus with 8 samples.

Results

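The Hoxd cluster on mouse chromosome 2 was described through H3K27me3, the histone mark that Polycomb repressive complex 2 writes on silenced developmental genes. Its members are the 9 Hoxd genes (Hoxd1, Hoxd3, Hoxd4, Hoxd8, Hoxd9, Hoxd10, Hoxd11, Hoxd12 and Hoxd13) and Evx2, chosen by name as the genes of one cluster, 10 of the 34631 protein-coding and lncRNA genes in the annotation table. The peaks of each library were taken over the span from the first to the last of these genes plus 100 kb on each side. Libraries came from female neural stem cell lines made from E14.5 embryos, with 2 H3K27me3 libraries of Smchd1 del/del cells and 2 of Smchd1 del/fl cells, each with a whole-cell extract library as control. The del/del cells had lost the conditional allele by transduction with MSCV-Cre-puro, a retrovirus that expresses Cre, and were selected in puromycin from 24 hours on. The del/fl cells were kept untransduced. Harvest at day 7 after transduction is given in a protocol text that all samples share. Both genotypes therefore already lack 1 copy of Smchd1, and the loss of the other cannot be told apart from transduction and selection. All cells also carried a 129 X chromosome from the mother with the Xist deltaA allele and a Castaneus X chromosome from the father, on a mixed C57BL/6, 129 and Castaneus strain. The labels do not say how many embryos gave the lines or which libraries share a line.

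Hox genes encode homeodomain transcription factors that give positional identity along the body axis. They lie in clusters whose order matches where along the axis they act, and Polycomb complexes keep a cluster silent in cells that do not use it, often as a single long domain of H3K27me3. Evx2, a homeobox gene related to fly even-skipped, neighbours Hoxd13 at the posterior end of the cluster, and long-range enhancers in limbs, digits and genitals lie in the gene-poor stretches beyond both ends. Smchd1 encodes a chromatin protein of the SMC family with roles in X inactivation and in the silencing of clustered autosomal genes.

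The span ran from 74652989 to 74765142 on chromosome 2 (mm10), 112 kb, with Evx2 on the minus strand at its start and the Hoxd genes on the plus strand from Hoxd13 to Hoxd1. With both flanks the region measured 312 kb and held 23 annotated genes. The immunoprecipitated tags left for peak calling numbered 14064030 and 12819919 in the del/del libraries against 13288499 and 11793402 in the del/fl libraries. Before filtering they numbered 24013734 and 21938857 in the del/del libraries against 20144605 and 18381858 in the del/fl libraries. Control tags left numbered 20770551 and 31629404 in the del/del libraries against 19579060 and 15525700 in the del/fl libraries. The genotypes were thus apart in tags before filtering and in control tags, and an effect of this on flank cover was not tested. Peaks covered 32.9 and 44.1 Mb of the autosomes in the del/del libraries against 35.8 and 47.5 Mb in the del/fl libraries. The genotypes overlapped in total cover, and the library numbered 2 was the higher one in each. Of a list of 13 neural stem cell markers, 12 held no peak at their ends in any library, which says nothing of their RNA, and Pax6 had 9.01% and 16.7% cover in the del/del libraries against 8.70% and 22.1% in the del/fl libraries.

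The promoters of the outermost members and of the nearest protein-coding gene on each side are printed here because the edge of the marked stretch falls between them. Each is the 250 bases before a start listed for the gene in RefSeq (GRCm38.p6, the assembly of mm10), 5′ to 3′ on its strand. The windows of Evx2 and Lnpk lie inside the annotated genes, which reach to 74661520 and 74579458. Every CG dinucleotide is in capitals, as Polycomb domains are known to form over CG-rich DNA. CG reads the same on both strands. Evx2 lies at chr2:74659558-74659807 (minus strand), Hoxd1 at chr2:74762730-74762979 (plus), Lnpk at chr2:74578949-74579198 (minus) and Mtx2 at chr2:74825562-74825811 (plus).
Evx2: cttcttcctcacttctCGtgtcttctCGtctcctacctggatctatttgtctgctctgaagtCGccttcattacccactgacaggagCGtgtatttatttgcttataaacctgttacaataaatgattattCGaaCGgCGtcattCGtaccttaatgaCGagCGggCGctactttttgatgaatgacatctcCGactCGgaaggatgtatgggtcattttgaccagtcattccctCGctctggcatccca
Hoxd1: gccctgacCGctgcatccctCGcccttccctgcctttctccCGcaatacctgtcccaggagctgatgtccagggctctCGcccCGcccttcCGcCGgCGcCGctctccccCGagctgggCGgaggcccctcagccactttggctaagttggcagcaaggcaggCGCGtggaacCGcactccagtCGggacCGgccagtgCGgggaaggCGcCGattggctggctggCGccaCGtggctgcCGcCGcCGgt
Lnpk: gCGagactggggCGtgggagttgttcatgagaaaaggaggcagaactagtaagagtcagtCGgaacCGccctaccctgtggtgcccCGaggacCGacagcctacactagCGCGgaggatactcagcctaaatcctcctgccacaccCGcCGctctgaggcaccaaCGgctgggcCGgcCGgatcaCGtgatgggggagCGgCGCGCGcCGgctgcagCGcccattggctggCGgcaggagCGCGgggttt
Mtx2: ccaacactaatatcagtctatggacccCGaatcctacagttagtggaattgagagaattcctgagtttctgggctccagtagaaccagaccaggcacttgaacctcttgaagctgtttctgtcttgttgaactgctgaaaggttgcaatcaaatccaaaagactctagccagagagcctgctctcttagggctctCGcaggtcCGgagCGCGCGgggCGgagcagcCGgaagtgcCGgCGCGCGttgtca

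Peaks covered the Evx2 and Hoxd1 promoters completely in all 4 libraries and the Lnpk and Mtx2 promoters in none. The CG counts did not separate them: Evx2 had 14 and Hoxd1 24, while Lnpk had 23 and Mtx2 12. Of 32851 promoter windows in the table, whose median count was 6, 29.4% had at least as many as Evx2, 11.98% at least as many as Hoxd1, 13.3% at least as many as Lnpk and 33.5% at least as many as Mtx2. The 11 promoter windows of the members (Hoxd11 has 2) held between 2 and 31, with a median of 13, and all 11 lay under a peak in every library. Hoxd13, whose product patterns digits and genitals, had the highest count at 31, and Hoxd4, which acts in the hindbrain and neck region, had 3. The marked and bare promoters thus overlapped in CG count.

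All 10 members lay inside 1 unbroken peak in each library. That peak ran from 74639332 to 74781957 in del/del library 1 and from 74639165 to 74789967 in del/del library 2. In del/fl it ran from 74638467 to 74782940 in library 1 and from 74636360 to 74790601 in library 2. The peak was 143 and 151 kb long in the del/del libraries against 144 and 154 kb in the del/fl libraries, with means of 147 kb ± 5.78 and 149 kb ± 6.91 (SD, n = 2 each), so the genotypes overlapped. No break was found anywhere between Evx2 and Hoxd1, and the cover of the span was 100% in each of the 4 libraries.

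The deposited pileup, the height of stacked tags that the caller gives a peak, was 30.1 and 28.2 in the del/del libraries against 28.5 and 27.8 in the del/fl libraries. Per 1000000 tags of its library it was 2.14 and 2.20 in the del/del libraries against 2.14 and 2.36 in the del/fl libraries. The fold enrichment over local background was 12.5 and 12.002 in the del/del libraries against 12.1 and 12.6 in the del/fl libraries. Both are the authors' values per peak, given as a description, and the genotypes overlapped in both. Within its own list the peak ranked 51st and 48th by fold enrichment among 17102 and 26327 autosomal peaks in the del/del libraries, and 54th and 56th among 17564 and 26637 in the del/fl libraries. By length it ranked 4th in both del/del lists and in del/fl library 1 and 3rd in del/fl library 2. The median autosomal peak had a fold enrichment of 3.27 and 2.91 in the del/del libraries against 3.33 and 3.04 in the del/fl libraries. Because 1 peak carries 1 value, the lists give no separate level for any member, and a change in the height of the mark over single genes would not be seen in them.

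**Figure D1:**
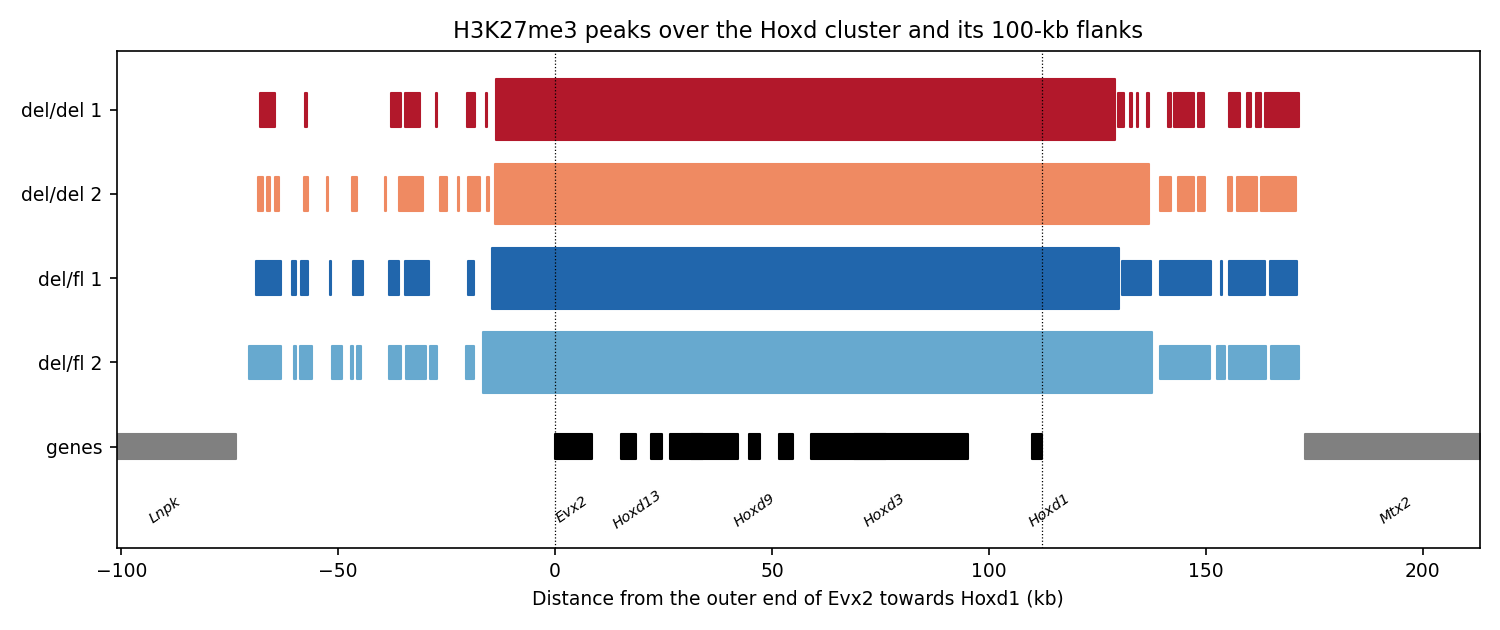
Peaks of each library (del/del above del/fl) over the cluster and its flanks, against distance from the outer end of Evx2 in kb. Tall bars are peaks with a fold enrichment over 10, short bars the others, black bars the member genes, grey bars Lnpk and Mtx2, and dotted lines the ends of the span. A single tall bar covers all members in each library, and short bars with breaks between them lie in the flanks up to Lnpk and Mtx2.

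The posterior members, Hoxd13 to Hoxd9, are genes of limbs, genitals and the tail end of the trunk, and the anterior ones, Hoxd8 to Hoxd1, include genes active in the hindbrain and spinal cord. Posterior and anterior members did not differ in cover, as all were fully covered. The same held for the noncoding genes between them. All 16 annotated genes of the span, among them the lncRNA genes Haglr and Hoxd3os1 and the microRNA gene Mir10b, were covered over their full length in every library. Mir10b lies within the annotated Hoxd3 and Hoxd4 genes, and its relative Mir10a in the Hoxb cluster. Their main products are shown because both share a seed, bases 2 to 8 (in capitals), which pairs with target mRNAs.
miR-10b-5p: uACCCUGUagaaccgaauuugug
miR-10a-5p: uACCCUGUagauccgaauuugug

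Both microRNA sequences lay under peaks in all 4 libraries, on chromosomes 2 and 11 (RefSeq, GRCm38.p6). The seed ACCCUGU is the same in both.

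Cover within 2.5 kb of both annotated ends of each gene was compared between genotypes with limma over all 9136 genes with a peak. Every member was at 100% in each library, and none was called. limma called 0% of all gene ends in either direction at an adjusted p of 0.05, with 900 at an unadjusted p under 0.05, and without its variance trend also 0. A member that is already fully covered cannot show a gain in cover.

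Both flanks were less covered in the del/del libraries than in the del/fl libraries. On the Evx2 side the 100-kb flank was 25.7% and 29.7% covered in the del/del libraries against 34.2% and 42.1% in the del/fl libraries, a difference of -10.5 percentage points between means of 27.7% ± 2.79 and 38.2% ± 5.59 (SD, n = 2 each). On the Hoxd1 side it was 38.4% and 46.2% covered in the del/del libraries against 51.3% and 53.9% in the del/fl libraries, a difference of -10.3 points between means of 42.3% ± 5.54 and 52.6% ± 1.80. In both flanks each del/del library lay below each del/fl library. The exact permutation test (two-sided) returned p = 0.33 on each side, the smallest value 2 against 2 libraries allow. Such an order was common: both del/del libraries were below both del/fl libraries in 13.5% of autosomal 100-kb windows with a peak, and in 25.7% of those with a mean cover of 20 to 60%. The opposite order was found in 7.33% and 10.5%. Without del/fl library 2 the Evx2-side difference was -6.555 points, and without del/del library 1 the Hoxd1-side one was -6.40. No contrast between the flanks was detectable with these libraries. Hoxd1-side minus Evx2-side cover was 12.7 and 16.6 points in the del/del libraries against 17.1 and 11.7 points in the del/fl libraries (exact permutation p = 1).

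The flank cover had 2 sources, the overhang of the long peak and separate small peaks, and most of the difference lay in the second. The long peak reached 13.7 and 13.8 kb past Evx2 in the del/del libraries against 14.52 and 16.6 kb in the del/fl libraries. On the Hoxd1 side it reached 16.8 and 24.8 kb past Hoxd1 in the del/del libraries against 17.8 and 25.5 kb in the del/fl libraries. This Hoxd1-side end went with the library number and not with genotype: both libraries numbered 1 had the shorter overhang and both numbered 2 the longer. The separate peaks added 12.1 and 15.8 kb on the Evx2 side in the del/del libraries against 19.7 and 25.5 kb in the del/fl libraries. They added 21.6 and 21.4 kb on the Hoxd1 side in the del/del libraries against 33.5 and 28.4 kb in the del/fl libraries. Of the differences of -10.5 and -10.3 points, the separate peaks made up -8.67 on the Evx2 side and -9.51 on the Hoxd1 side. Both sides thus held less in the small peaks of each del/del library than in those of each del/fl library.

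**Figure D2:**
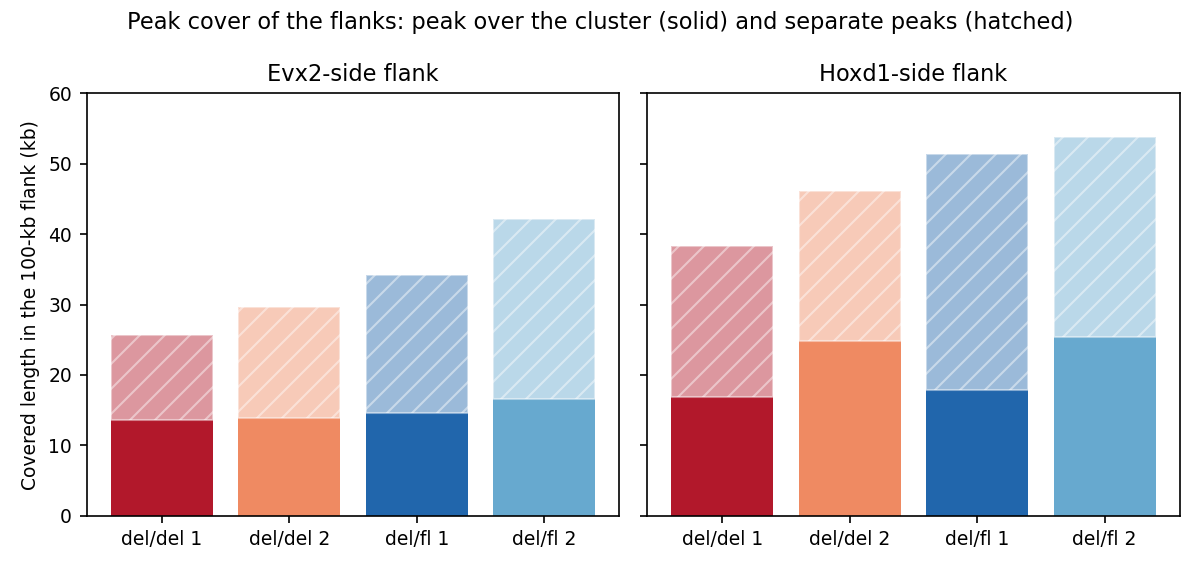
Covered length in kb of each 100-kb flank in the 4 libraries, split into the overhang of the peak over the cluster (solid) and separate peaks (hatched). The solid part on the Hoxd1 side pairs the libraries by number, while the hatched part is 21.6 and 21.4 kb in the del/del libraries against 33.5 and 28.4 kb in the del/fl libraries.

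These separate peaks were short and weak. Their median length on the Hoxd1 side was 1.11 and 3.06 kb in the del/del libraries against 6.69 and 7.52 kb in the del/fl libraries, and their number was 11 and 6 in the del/del libraries against 5 and 4 in the del/fl libraries, so more cover came with fewer and longer peaks. Those on the Evx2 side numbered 7 and 12 in the del/del libraries against 8 and 10 in the del/fl libraries, with overlapping genotypes. Fold enrichment stayed between 2.59 and 4.61 for the del/del peaks of both flanks and between 2.82 and 4.48 for the del/fl peaks, far below the long peak. None of them reached a −log10 q of 5. With that stricter threshold the long peak alone was left, and the differences shrank to -1.83 points on the Evx2 side and -0.81 points on the Hoxd1 side. When each library was scaled to its autosomal cover, the Hoxd1-side flank had 46.8% and 42.0% in the del/del libraries against 57.5% and 45.4% in the del/fl libraries, and the genotypes then overlapped (exact permutation p = 0.667). On the Evx2 side the scaled values were 31.3% and 26.9% in the del/del libraries against 38.4% and 35.5% in the del/fl libraries, still apart.

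At the level of bases, 4.68 kb of the Evx2-side flank and 4.03 kb of the Hoxd1-side flank lay in a peak of both del/fl libraries and of neither del/del library. The opposite pattern took up 0.080 and 0.803 kb. As a share of the bases in any peak, the stretches in del/fl only were 9.46% and 7.25%, beside 3.57% over the autosomes, and those in del/del only were 0.162% and 1.44%, beside 2.13%. They were small pieces, the longest 1366 bp, at 74802696 to 74804061, 37.6 kb past Hoxd1. All 4 libraries shared 40.9% of the marked bases of the Evx2-side flank and 58.6% of those of the Hoxd1-side flank, and 29.98% over the autosomes. These autosomal shares of bases were not matched on cover, and no share for stretches of like cover was computed. Cover matters for such a comparison. Both del/del libraries were below both del/fl libraries in 11.6% of autosomal 10-kb windows with a peak, but in 26.7% of those with a mean cover of 20 to 60%.

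Breaks were then read along each flank. From Hoxd1 to the last peak before Mtx2, the mark was interrupted 11 and 6 times in the del/del libraries against 5 and 4 times in the del/fl libraries. The uncovered length added up to 21.1 and 12.5 kb in the del/del libraries against 7.60 and 5.41 kb in the del/fl libraries. The longest break lay at the same place in both del/del libraries, at 74802495 to 74808308 in library 1 and at 74802696 to 74808036 in library 2, with lengths of 5.81 and 5.34 kb. In del/fl this stretch held part of a longer peak and a small peak, and its longest break was 2.24 kb in library 1 and 1.59 kb in library 2. From the first peak past Lnpk to Evx2, breaks numbered 7 and 12 in the del/del libraries against 8 and 10 in the del/fl libraries. They added up to 42.3 and 38.7 kb in the del/del libraries against 34.6 and 28.4 kb in the del/fl libraries, and the longest was 19.3 and 6.48 kb in the del/del libraries against 8.85 and 6.67 kb in the del/fl libraries.

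The edge of the domain depended on which breaks it was allowed to bridge. With runs of peaks joined over gaps of at most 5 kb, the domain ended 37.4 and 37.6 kb past Hoxd1 in the del/del libraries against 58.9 and 59.3 kb in the del/fl libraries (exact permutation p = 0.33, the smallest possible). At the ends of broad autosomal domains, both del/del runs were shorter in 22.3% and longer in 15.4% of 358 ends. The difference of -21.7 kb rested on the single break of 5.81 and 5.34 kb, which is just over the limit: with gaps of up to 10 kb bridged, the domain ended 59.4 and 58.7 kb past Hoxd1 in the del/del libraries against 58.9 and 59.3 kb in the del/fl libraries, a difference of -0.0505 kb. On the Evx2 side the edge lay 20.3 and 39.1 kb out in the del/del libraries against 20.1 and 20.6 kb out in the del/fl libraries, with overlapping genotypes (exact permutation p = 0.667). The longer run there belonged to del/del library 2 alone, and without it the difference of 9.32 kb became -0.11 kb.

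The outermost limits of the mark were nearly fixed. The last Hoxd1-side peak stopped 1.24 and 1.98 kb short of Mtx2, a mitochondrial import gene (metaxin), in the del/del libraries against 1.73 and 1.38 kb short of it in the del/fl libraries. On the other side the first peak began 5.55 and 5.15 kb past Lnpk, the lunapark gene of the endoplasmic reticulum, in the del/del libraries against 4.68 and 2.94 kb past it in the del/fl libraries. Both gene bodies held no peak in any library. The bare stretch over Mtx2 was 91.4 and 93.1 kb long in the del/del libraries against 81.6 and 74.4 kb in the del/fl libraries, and the one over Lnpk 112 and 111 kb in the del/del libraries against 110 and 109 kb in the del/fl libraries. The marked stretch was thus framed by the same 2 genes in all libraries, while its loose outer parts differed.

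In steps of 25 kb outward from the span, the largest difference lay 25 to 50 kb past Hoxd1 and 50 to 75 kb past Evx2. The latter was the outermost step with peaks in that flank. Between 25 and 50 kb past Hoxd1 cover was 42.2% and 53.3% in the del/del libraries against 77.3% and 82.2% in the del/fl libraries, and between 50 and 75 kb it was 34.0% and 32.3% in the del/del libraries against 31.3% and 33.3% in the del/fl libraries. The genotypes were apart in the nearer step and overlapped in the farther one. The Evx2 side differed most between 50 and 75 kb, next to Lnpk, with 15.8% and 15.7% in the del/del libraries against 33.4% and 48.5% in the del/fl libraries. Within 25 kb of Evx2 the genotypes overlapped, at 63.0% and 69.1% in the del/del libraries against 63.7% and 74.6% in the del/fl libraries.

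Windows of 10 kb placed the differences more closely. Of 32 windows in the region, 25 held a peak and entered the limma fit of 46380 windows over the genome. The 12 windows over the span, and 1 next to it on each side, were fully covered in all libraries. The other 11 all had a lower mean in the del/del libraries. Both del/del libraries lay below both del/fl libraries in 6 of the 25 windows, beside 11.6% of autosomal windows with a peak, and the opposite order, found in 6.53% of those, was not seen. Among the 6 windows of the region with a mean cover of 20 to 60% the genotypes were apart in this way in 2, beside 26.7% of such autosomal windows (10.8% in the opposite order). limma called 3 of the 25 windows lower and none higher, against 0.239% of autosomal windows called lower and 0.272% higher. Over all chromosomes, X included, it called 0.175% lower and 10.2% higher. These shares were not matched on cover, and the called windows at 74790001 and 74800001 adjoin. In a fit of only the windows with a mean cover of at least 10%, none was called in the region or elsewhere.

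The window with the smallest adjusted p, at 74800001 to 74810000, held the shared break. It was 31.8% and 27.7% covered in the del/del libraries against 62.5% and 73.5% in the del/fl libraries, a difference of -38.3 points ± 9.85 (SE; limma, adjusted p = 0.0172). Its neighbour at 74790001 to 74800000 was 48.7% and 59.7% covered in the del/del libraries against 80.9% and 82.0% in the del/fl libraries (-27.3 points ± 8.17, limma, adjusted p = 0.0404). The genotypes were apart in both windows. On the Evx2 side the window at 74580001 to 74590000, which holds an end of the lncRNA gene 4930445N08Rik beside Lnpk, was 34.8% and 28.4% covered in the del/del libraries against 56.3% and 74.4% in the del/fl libraries (-33.8 points ± 10.2, limma, adjusted p = 0.0425). With any 1 of the 4 libraries left out, none of the 3 was called, in fits where 1 genotype has a single library that is assumed to vary like the others. The differences then ran from -43.8 to -32.8 points in the window at 74800001, from -32.8 to -21.8 points at 74790001 and from -42.8 to -24.8 points at 74580001, all of the same sign. None was called without the variance trend or with lists of equal length, and when autosomes were fitted alone the first was called.

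**Figure D3:**
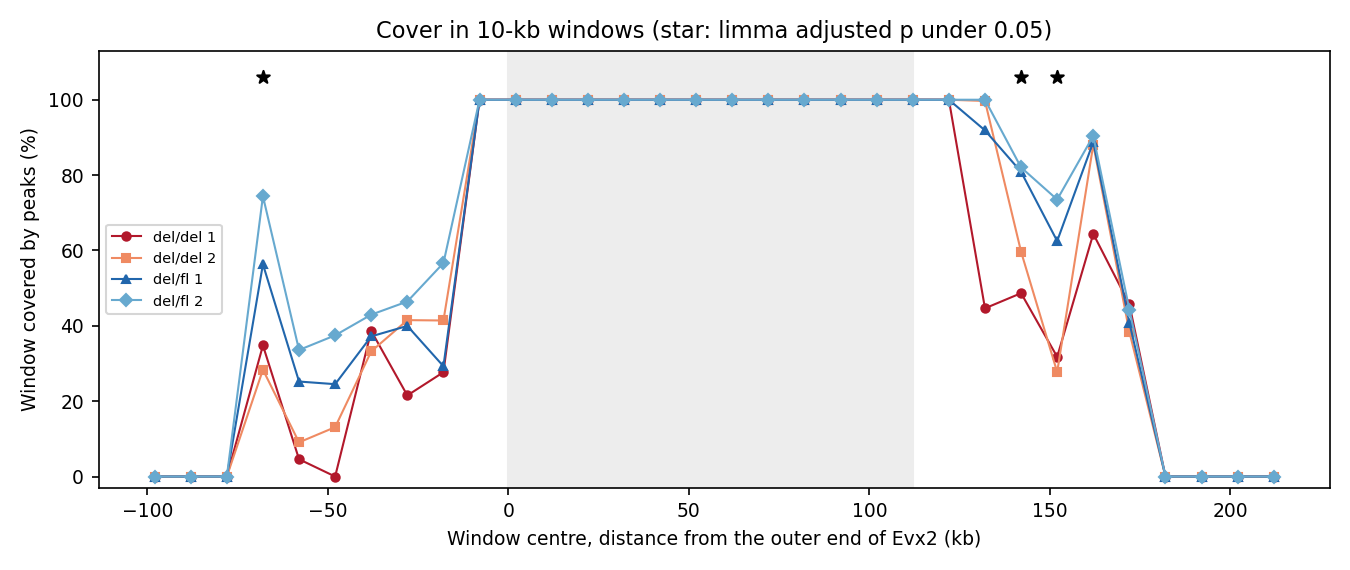
Percent of each 10-kb window covered by peaks in the 4 libraries, against the distance of the window centre from the outer end of Evx2 in kb; the grey band is the span and stars mark windows with a limma adjusted p under 0.05. All lines stay at 100% over the span and part in the flanks, where the starred windows have 27.7% to 59.7% cover in the del/del libraries against 56.3% to 82.0% in the del/fl libraries.

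The other windows with large differences did not pass the test. Those at 74590001 and 74600001 on the Evx2 side had 4.59% and 9.07%, and 0% and 13.1%, in the del/del libraries against 25.2% and 33.6%, and 24.5% and 37.5%, in the del/fl libraries (limma, adjusted p = 0.166 and 0.147). The one at 74620001 had 21.5% and 41.5% in the del/del libraries against 39.97% and 46.5% in the del/fl libraries, and the one at 74630001 had 27.7% and 41.4% in the del/del libraries against 29.3% and 56.7% in the del/fl libraries. In both the genotypes overlapped. On the Hoxd1 side the window at 74780001 had 44.6% and 99.7% in the del/del libraries against 91.9% and 100% in the del/fl libraries. The low value belonged to del/del library 1, whose long peak ended at 74781957. In del/fl library 1 the long peak ended almost as early, at 74782940, and a separate peak from 74783754 to 74790440 followed. At 74810001 cover was 64.4% and 88.1% in the del/del libraries against 88.8% and 90.4% in the del/fl libraries, and at 74820001, next to Mtx2, 45.7% and 38.4% in the del/del libraries against 40.8% and 44.3% in the del/fl libraries.

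The genes of the flanks followed these windows. At the ends of 4930445N08Rik cover was 19.7% and 14.0% in the del/del libraries against 28.4% and 45.7% in the del/fl libraries (limma, adjusted p = 0.624). Gm39852, a lncRNA gene between Lnpk and Evx2, had 1.32% and 17.8% in the del/del libraries against 25.6% and 29.7% in the del/fl libraries (limma, adjusted p = 0.624). Neither gene passed the test. The ends of Mtx2 had 12.6% and 5.26% in the del/del libraries against 7.68% and 11.2% in the del/fl libraries. Of the smaller genes, Gm22975 lay under a peak of del/fl library 2 only, and Mrpl23-ps1 and Gm14425 under none.

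The other 3 Hox clusters gave no common direction in their flanks. The Hoxa and Hoxc clusters were also fully covered by 1 peak in each library, 187 to 193 kb and 202 to 226 kb long, and Hoxb was 93.9% and 96.2% covered in the del/del libraries against 88.5% and 91.1% in the del/fl libraries. On the Hoxa13 side cover was 75.6% and 76.1% in the del/del libraries against 77.5% and 79.7% in the del/fl libraries, a difference of -2.71 points with genotypes apart. The Hoxb1-side flank went the other way, with 78.0% and 74.0% in the del/del libraries against 59.3% and 63.2% in the del/fl libraries (exact permutation p = 0.33). The Hoxb13-side flank and both Hoxc flanks overlapped between genotypes. Of the flanks given here, those of Hoxd had the most negative differences, and the Hoxb1 side had a larger one of the opposite sign. The flanks were not matched on cover, and a flank near full cover has less room to differ. Both Hoxc flanks had 86.2% to 94.6% cover over the libraries, and the Hoxd flanks 25.7% to 53.9%.

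**Figure D4:**
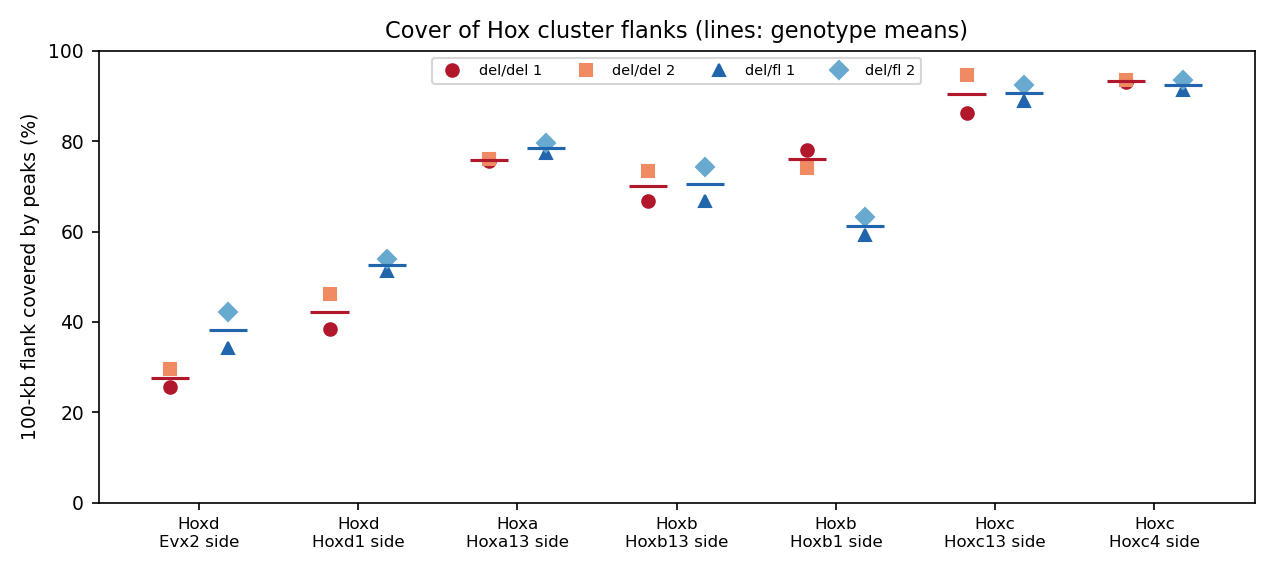
Percent of 100-kb flanks of Hox clusters covered by peaks, with 1 point per library and lines at the genotype means. The Hoxd flanks are lower in both del/del libraries (25.7% to 46.2% over both sides) than in the del/fl libraries (34.2% to 53.9%) on each side, and the Hoxb1-side flank is higher.

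Lists of related genes were set beside the members, in cover at gene ends. All 30 other Hox genes were fully covered in every library. Of 7 even-skipped and ParaHox genes, the relatives of Evx2 and of the Hox genes, 6 were fully covered throughout, and Cdx1 had 60.1% and 60.4% in the del/del libraries against 62.1% and 72.01% in the del/fl libraries. Of 10 Hox cofactor genes, whose products bind DNA together with Hox proteins or inhibit them, 9 held no peak, and Meis3 had 0% and 2.38% in the del/del libraries against 3.25% and 7.45% in the del/fl libraries. Of 28 Polycomb genes 10 had a peak, 4 with a higher and 6 with a lower mean in the del/del libraries (median -3.08 points), with Bmi1, a subunit of Polycomb repressive complex 1, at 18.4% and 11.7% in the del/del libraries against 23.3% and 29.2% in the del/fl libraries. Of 14 retinoic acid genes, whose pathway activates anterior Hox genes, 12 had a peak, 8 higher and 4 lower (median 1.18 points), with Aldh1a3, which makes retinoic acid, at 23.9% and 23.3% in the del/del libraries against 13.7% and 14.8% in the del/fl libraries. No member of these lists passed limma's test over all genes, and the median of all autosomal genes tested was -0.965 points.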

How the data were processed

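H3K27me3 chromatin immunoprecipitation was sequenced in 4 libraries with matched whole-cell extracts, 8 samples in all. The submitters' processing notes name bcl2fastq, Bowtie 0.12.9 and mm10. Per the file headers, each H3K27me3 library had its own broad peak list from MACS2 2.1.0.20140616, made at a q-value threshold of 0.05 with 1 tag kept at a position, background windows of 1000 and 10000 bp and the larger library sampled down. The largest q of a listed peak was 0.0919 and 0.0969 in the del/del libraries against 0.0918 and 0.0983 in the del/fl libraries. The broad lists thus also held peaks with a q over 0.05, and these were counted. The authors deposited pileup, a signal that counts overlapping tags, and fold enrichment, its ratio to local background. Each peak's p-value and q-value are deposited as −log10. Fold enrichment was ranked only within a list. Pileup and fold enrichment were set side by side between libraries as a description, without a test. The stricter threshold on −log10 q was the same for every list. The whole-cell extracts entered only as controls.

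Covered base pairs were computed with Python 3.11.15, numpy 2.4.6 and pandas 2.3.3, drawn with matplotlib 3.10.9, and compared by exact permutation or, over all windows or genes with a peak, by limma 3.58.1 in R 4.3.3 (variance trend, robust, Benjamini-Hochberg). The code was tested on simulated data. Named were all members, all genes of the region, the 5 windows per flank with the largest differences, called windows, and up to 4 genes per list (neural stem cell, neuronal, glial, blood, vascular and fibroblast markers included). The members and lists were chosen with earlier results of these data known. No label says that libraries are separate embryos, so each p-value reflects only how these samples vary, which may be technical. One flank of another Hox cluster is not reported here. Depth and peak number limit the precision. Alternatives were stricter peaks, lists of equal length, other flanks, gaps and windows, fits without a trend, and each library left out.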

Additional observations from a re-analysis of the deposited data

How the results depend on the processing

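Cover of the span was 100% in each library under every alternative run, and no member was called at its ends in any of the 12 other settings. With a −log10 q of at least 5 the difference was -1.83 points on the Evx2 side and -0.81 on the Hoxd1 side, and the edges differed by -1.83 kb (reversed) and -0.81 kb, as the small flank peaks fall away by construction. Flanks of 200 kb gave -5.63 points on the Evx2 side, and flanks of 50 kb -21.1 on the Hoxd1 side. Left out in turn, the libraries gave -14.5 to -6.555 points on the Evx2 side and -14.2 to -6.40 on the Hoxd1 side, edges of -0.11 to 18.8 kb (reversed without del/del replicate 2) and -21.8 to -21.5 kb, and 0 called windows each time. Ending the domain at gaps over 2 kb gave edges of 0.415 kb (Evx2 side, against 9.32 kb) and -24.4 kb (Hoxd1 side), and at gaps over 10 kb edges of -16.6 kb (Evx2 side, reversed) and -0.0505 kb; the runs change by construction. Called windows of the region, 3 as reported, were 0 with stricter peaks, with lists of equal length, without the trend, with a mean cover of at least 10%, and in windows of 5 kb or 100 kb, 1 with autosomes only and 2 in windows of 25 kb; the cause was not tested.

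The library numbers are not said to mark a shared line. Same-numbered libraries deviated together weakly (correlation 0.0728 over all windows, 0.114 over autosomes). With the replicate block 5 windows were called in place of 3, among them those at 74580001, 74790001 and 74800001 (limma, adjusted p = 0.00394, 0.0119 and 0.00076), and flank cover, being a difference of means, was as before (-10.5 and -10.3 points). Over the 13 other settings limma called 0 to 9438 windows higher and 0 to 7099 lower in the genome, against 4718 and 81. Separate peaks alone gave -8.67 and -9.51 points, and scaling to autosomal cover -7.83 and -7.14; both were chosen after seeing the data.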

Other observations

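Beyond the 100-kb flanks a longer peak was present in all 4 libraries on the far side of Lnpk. It was the longest peak between 100 and 300 kb from Evx2, overlapped no annotated gene, and lay 220 kb from Evx2. It spanned 8.90 and 9.54 kb in the del/del libraries against 10.2 and 9.49 kb in the del/fl libraries, with a fold enrichment of 4.28 and 3.76 in the del/del libraries against 4.56 and 4.62 in the del/fl libraries, as the authors' peak caller gave it. On the other side, past Mtx2, no peak between 100 and 300 kb was longer than 4.28 kb. Cover there was 2.79% and 4.08% in the del/del libraries against 3.60% and 7.49% in the del/fl libraries, with overlapping genotypes. In the 25-kb step from 125 to 150 kb past Hoxd1, which starts beyond Mtx2, cover was 0% and 0% in the del/del libraries against 8.29% and 11.9% in the del/fl libraries. From 150 to 175 kb it was 1.15% and 3.28% in the del/del libraries against 1.19% and 8.88% in the del/fl libraries. From 175 to 200 kb it was 2.16% and 7.20% against 3.63% and 11.4%, and the genotypes overlapped in both steps. Both del/del libraries were below both del/fl libraries in 11.6% of autosomal 10-kb windows with a peak and in 13.5% of 100-kb ones.

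Marker genes of further cell types were read in the same way, and no marker passed the limma test. Peaks were found at the ends of 8 of 9 neuronal, 4 of 9 astrocyte and oligodendrocyte, 3 of 7 microglial and blood, 4 of 7 endothelial and mural, and 3 of 7 fibroblast genes. Mean cover of the neuronal list was 33.2% and 40.8% in the del/del libraries against 33.4% and 34.7% in the del/fl libraries, and that of the glial list 24.5% and 25.6% in the del/del libraries against 20.9% and 24.1% in the del/fl libraries. The blood list had 2.61% and 6.26% in the del/del libraries against 4.22% and 11.6% in the del/fl libraries, the vascular list 9.49% and 14.6% in the del/del libraries against 10.03% and 15.5% in the del/fl libraries, and the fibroblast list 14.6% and 14.8% in the del/del libraries against 16.9% and 14.3% in the del/fl libraries.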
